A study of Chlorocebus sabaeus with 45 samples.

Results

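AMP-activated protein kinase (AMPK) is the energy sensor of animal cells, and the genes described here encode its subunits, its upstream kinases and a pair of proteins of fatty acid oxidation that act below it. They were taken by symbol from the deposited whole-blood expression tables: PRKAA1 and PRKAA2 (catalytic alpha subunits), PRKAB1 and PRKAB2 (beta subunits), PRKAG1 and PRKAG2 (gamma subunits), STK11 and CAMKK2 (upstream kinases), and ACACB and CPT1A. Of these 10 symbols, 9 have a row among the 33994 genes of the tables. PRKAB2 was not analysed here, because no row matched it by symbol or by gene number. The animals were 15 wild-born juvenile male vervet monkeys (Chlorocebus sabaeus) of St. Kitts, each from a different troop, moved from the wild into individual quarantine housing as a model of psychosocial stress. Each gave 1 blood sample at each of 3 time points, day 0 (Tp1), day 3 (Tp2) and day 14 (Tp4), for 45 libraries, and every comparison below was made among these samples. Fits of single genes had no term for the animal unless stated, whereas ratios and counts of animals were taken within animals. Ketamine with xylazine was the sedative on day 0, when the samples were drawn in the field, and dexmedetomidine with midazolam on the later days in quarantine. Place, sedation and days of quarantine therefore cannot be told apart in any comparison with day 0, whereas day 14 and day 3 shared housing and sedation. The RNA integrity numbers listed for these samples were also higher on average on each later day, so fits with this number as covariate are given where they end a call of a gene named below. There was no group of animals left in the wild.

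AMPK is a complex of a catalytic alpha subunit, a beta subunit that holds the complex together and a gamma subunit that binds AMP, ADP and ATP. It becomes active when its alpha subunit is phosphorylated, either by LKB1, the product of STK11, or by CAMKK2, which responds to calcium. Active AMPK restrains pathways that consume ATP and favours those that make it. One of its best known substrates is acetyl-CoA carboxylase, of which ACACB encodes the form that makes malonyl-CoA at mitochondria, and malonyl-CoA inhibits CPT1A, the enzyme that commits long-chain fatty acids to entry into mitochondria. These are regulatory steps of the proteins, and the libraries measured RNA only.

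Levels are given as FPKM (fragments per length of the gene and per total of the library on genes), as deposited, so that levels of different genes can be set side by side. Every value above 0 was a whole number of fragments, and each library held between 13216275 and 31469332 fragments on genes. Changes are log2 fold changes of FPKM divided by a TMM factor (trimmed mean of M values) that sets the typical gene of each library equal, with 0.1 added. They come from limma over 18753 tested genes, with Benjamini-Hochberg adjusted p-values and a threshold of 0.05. Without TMM the median of all tested genes lay at −0.36 on day 14 vs. day 0 and at −0.35 on day 14 vs. day 3, against −0.02 for both with TMM, so a scaled value is a change relative to the typical gene. Of the 9 genes found, 8 passed the filter on low values and PRKAA2 did not.

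Blood composition moved with the time points. The summed FPKM of 13 reticulocyte and erythroid markers had a day 0 median of 6940 (range 833 to 22800), 15800 on day 3 (5510 to 29800) and 29400 on day 14 (11300 to 42600), and it was above day 0 in 14 of 15 animals on both later days. The sum of 14 neutrophil markers ran the other way, with medians of 4620 (1800 to 35400), 2970 (707 to 9070) and 1600 (553 to 4180), and it was above day 0 in 6 of 15 animals on day 3 and in 1 on day 14. Platelet markers peaked on day 3 (medians 666, 2320 and 1380), NK cell markers lay above day 0 in 12 animals on day 3 (median 416) and in 14 on day 14 (median 565), monocyte markers had medians of 1660, 1650 and 1320, T cell markers of 660, 609 and 538, and B cell markers of 361, 344 and 160. No marker with a row was at 0 in all libraries. These sums are of deposited FPKM, without TMM. With TMM the median log2 fold change on day 14 vs. day 0 was 0.05 for monocyte markers (1 up and 2 down of 9). It was 0.10 for T cell markers (1 up and 0 down of 10) and −0.41 for B cell markers (0 up and 2 down of 7). Neutrophil markers gave −1.3 (0 up and 11 down of 14). In whole blood, fewer cells of a type and less RNA per cell cannot be told apart. The 4 highest neutrophil sums on day 0 were those of animals 2, 7, 11 and 15, at 11370 to 35450, and results below that rest on these 4 animals are also given for the other 11. Animal 5 came next, at 10600 and close to animal 2 (11370), so the division after 4 is arbitrary. With animal 5 left out as well, each of the 8 genes described below kept the side of the threshold that it had without the 4 animals, on day 3 and on day 14 vs. day 0.

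**Figure D1:**
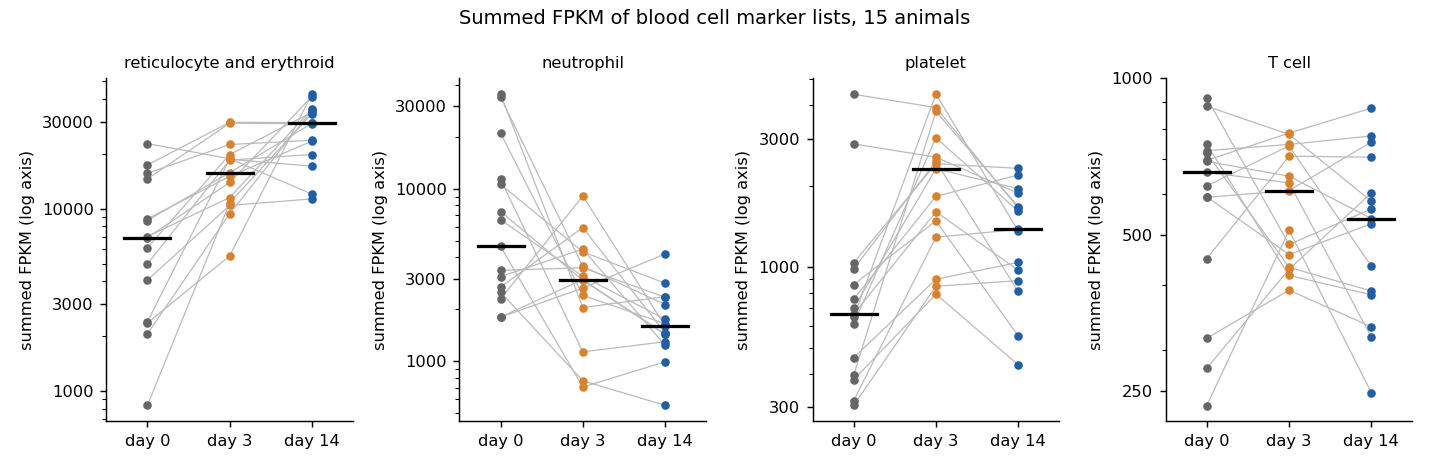
Summed FPKM (log axis) of the erythroid, neutrophil, platelet and T cell marker lists on days 0, 3 and 14. Points are libraries, grey lines join the samples of an animal and bars are medians (n = 15); erythroid medians went from 6940 to 29400 and neutrophil medians from 4620 to 1600 between day 0 and day 14.

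Of the 8 genes tested, 2 changed between day 0 and day 3, 6 between day 0 and day 14 and 1 between day 3 and day 14. The genes were chosen with earlier results of these data known, so these counts are a description and no test of the group. On day 3 STK11 rose and PRKAB1 fell, 2 of 8 where 12.2% of all tested genes were called (6.04% up and 6.19% down). By day 14 STK11, PRKAG1 and ACACB had risen and PRKAB1, CAMKK2 and PRKAG2 had fallen, 6 of 8 where 36.0% of all tested genes were called (18.8% up and 17.3% down). Without TMM STK11 rose and PRKAA1, PRKAB1, PRKAG2 and CAMKK2 fell, 5 of 8 where 49.5% of all tested genes were called (7.79% up and 41.8% down). From day 3 to day 14 PRKAG1 rose, 1 of 8 where 13.3% of all tested genes were called (8.32% up). Without TMM the calls from day 3 to day 14 were instead 3 falls, of CAMKK2 (−0.71, adjusted p = 0.00314), PRKAG2 (−0.58, adjusted p = 0.00635) and PRKAB1 (−0.58, adjusted p = 0.0246), 3 of 8 where 38.4% of all tested genes were called (3.23% up and 35.2% down), and PRKAG1 was at −0.09. The ranges of the time points overlapped for all 8 genes in all 3 comparisons, and the median log2 fold change of the 8 on day 14 was 0.18, beside −0.02 for all tested genes, and −0.24 beside −0.36 without TMM. The day 3 count was 1 without animal 2, 7 or 15 and 0 without animal 11, and the count of day 14 vs. day 3 was 0 without animal 3 or 8 and 2 without animal 13 (in limma, between 2 and 4 genes had an unadjusted p under 0.05 where the count was 0). Over all tested genes the day 3 count went from 2292 to 1358, 1717, 1937 and 1593 without animal 2, 7, 15 and 11. That of day 14 vs. day 3 went from 2498 to 1328, 792 and 2345 without animal 3, 8 and 13. Among the other 11 animals limma called 0 of the 8 genes on day 3, with 1 at an unadjusted p under 0.05, and 4 on day 14 (STK11, PRKAG1, PRKAG2 and ACACB), where 281 and 4954 of all 18753 tested genes were called.

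**Figure D2:**
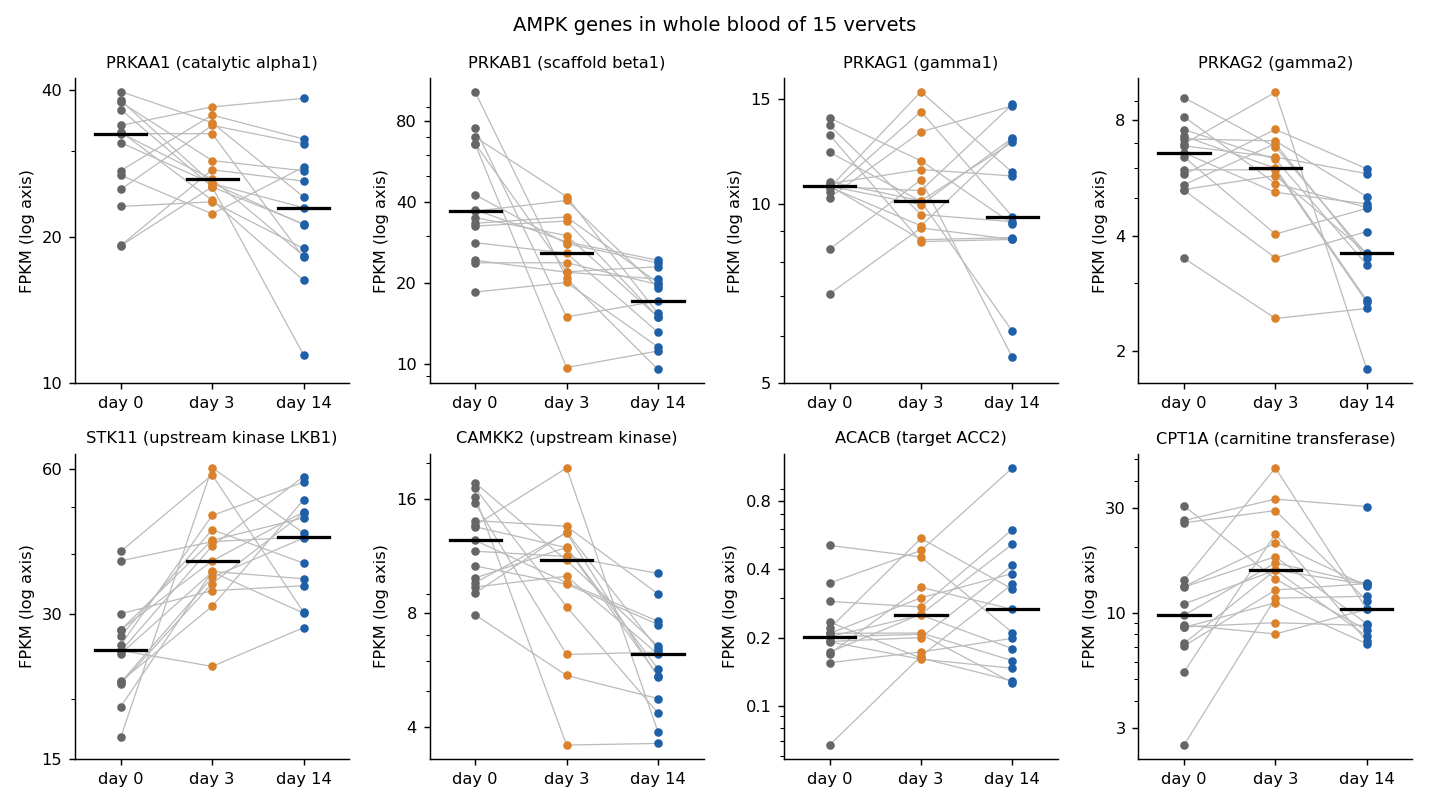
FPKM (log axes) of the 8 tested genes on days 0, 3 and 14. Points are libraries, grey lines join the samples of an animal and bars are medians (n = 15); STK11 medians went from 25.2 to 43.4 and CAMKK2 medians from 12.5 to 6.25 between day 0 and day 14, with overlapping ranges in every panel.

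PRKAA1, which encodes the alpha1 catalytic subunit, gave nearly all alpha subunit RNA and showed no change past the threshold. Its level ranged from 19.2 to 39.8 FPKM on day 0 (median 32.6), from 22.3 to 37.0 on day 3 (median 26.3) and from 11.4 to 38.5 on day 14 (median 23.0). The lowest day 14 value came from animal 15, whose day 0 value was also the lowest. With TMM the log2 fold change was −0.03 ± 0.08 (SE) on day 3 (adjusted p = 0.85), 0.04 ± 0.08 on day 14 (adjusted p = 0.731) and 0.07 ± 0.08 from day 3 to day 14 (adjusted p = 0.574). The deposited values without TMM gave −0.38 on day 14 (adjusted p = 0.0172), close to the shift of −0.36 that the median gene showed without scaling. The alpha2 gene PRKAA2 was at 0 in 34 of 45 libraries and never exceeded 5 fragments in a library. Over all libraries PRKAA2 collected 22 fragments and PRKAA1 50287. Its highest value was 0.102 FPKM, in animal 4 on day 14, while the lowest PRKAA1 value was 11.4 FPKM. The 3 libraries with 3 or more PRKAA2 fragments had 26747 to 31402 genes above 0, against a median of 21543 over all libraries, and animal 11 on day 0, with 1 PRKAA2 fragment, had 26792. A count of 0 allows up to 3 fragments, which corresponds to 0.0273 to 0.0651 FPKM of PRKAA2 depending on the library and covers counting error only. At this depth no change of PRKAA2 was detectable and its ratio to PRKAA1 was not tested.

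PRKAB1, the beta1 subunit gene, had the highest median of the 8 genes on day 0 and lay lower on both later days. It ranged from 18.5 to 102.4 FPKM on day 0 (median 37.0), from 9.69 to 41.9 on day 3 (median 25.8) and from 9.55 to 24.3 on day 14 (median 17.2). The animals were widely spread on day 0, with a coefficient of variation of 52.0%, and closer together on day 14, at 27.5%. PRKAB1 fell by 0.68 ± 0.21 (SE) on the log2 scale on day 3 (adjusted p = 0.0303, lower in 9 of 15 animals) and by 0.88 ± 0.21 on day 14 (adjusted p = 0.00121, lower in 14 of 15). Day 14 vs. day 3 gave −0.20 ± 0.21 (adjusted p = 0.555). Animals 2, 7, 11 and 15, the 4 highest in neutrophil markers on day 0, then had 65.9, 65.7, 75.1 and 102.4 FPKM, and among the others only animal 8 reached this level, at 69.8 FPKM. Animal 5, the next in neutrophil markers, had the lowest PRKAB1 of all on day 0, at 18.5 FPKM. The call on day 3 was lost when any 1 of these 4 animals was left out (adjusted p at most 0.0994), and also once the RNA integrity number entered as covariate (−0.64, adjusted p = 0.0683) or with no filter on low values (−0.68, adjusted p = 0.0517). With all 4 left out the log2 fold change was −0.06 on day 3 (adjusted p = 0.898) and −0.38 on day 14 (adjusted p = 0.0718), and with animal 5 left out as well −0.13 and −0.41 (adjusted p = 0.747 and 0.0528). These 4 animals were among the highest in PRKAB1 on day 0, so leaving them out tends by itself to shrink a fall. The part of neutrophil content in the fall of PRKAB1 was not tested.

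The gamma subunit genes moved apart. PRKAG1, which encodes gamma1, ranged from 7.07 to 13.9 FPKM on day 0 (median 10.7), from 8.65 to 15.4 on day 3 (median 10.1) and from 5.53 to 14.7 on day 14 (median 9.53). PRKAG2, which encodes gamma2, ranged from 3.49 to 9.17 FPKM on day 0 (median 6.58), from 2.43 to 9.47 on day 3 (median 6.0) and from 1.79 to 5.98 on day 14 (median 3.6). PRKAG1 was therefore nearly level in FPKM while PRKAG2 lay lower on day 14 in 14 of 15 animals. Relative to the typical gene PRKAG1 rose by day 14, with a log2 fold change of 0.32 ± 0.08 (SE) vs. day 0 (adjusted p = 0.00219, higher in 13 of 15 animals) and 0.29 ± 0.08 vs. day 3 (adjusted p = 0.0206, higher in 14 of 15). Without TMM these values turned to −0.10 (adjusted p = 0.492) and −0.09 (adjusted p = 0.562), both above the median gene in that scale. RNA integrity number as covariate ended both calls (adjusted p = 0.119 and 0.0806). The call vs. day 3 was also lost without animal 3 (adjusted p = 0.0531) or without animal 8 (adjusted p = 0.0513). PRKAG2 fell by 0.33 ± 0.09 by day 14 (adjusted p = 0.00592, lower in 14 of 15 animals), and gave −0.12 on day 3 (adjusted p = 0.462) and −0.21 from day 3 to day 14 (adjusted p = 0.126). TMM factors computed on FPKM in place of fragments ended this call (−0.15 and adjusted p = 0.209 over all genes), and so did the animal as a block together with RNA integrity number (adjusted p = 0.0804). Under that TMM on FPKM the median of all tested genes was 0.13, against −0.02 in the main fit. PRKAG3, the gamma3 gene, had at most 14 fragments in a library, or 0.23 FPKM, and was at 0 in 33 of 45.

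A ratio within a library does not depend on scaling between libraries, so the gamma subunit genes were also compared as PRKAG1 to PRKAG2. The ratio ranged from 1.14 to 2.49 on day 0 (median 1.71), from 1.07 to 3.75 on day 3 (median 1.76) and from 1.58 to 3.53 on day 14 (median 2.73). PRKAG1 was above PRKAG2 in all 45 libraries. The within-animal log2 change was 0.64 ± 0.41 (SD, n = 15) on day 14 vs. day 0, a 1.56-fold increase seen in 14 of 15 animals (two-sided exact sign-flip test, p = 0.000305, adjusted p = 0.00061 over 6 ratio tests). It was 0.15 ± 0.50 on day 3 vs. day 0 (higher in 8 of 15, exact p = 0.261) and 0.49 ± 0.54 on day 14 vs. day 3 (higher in 11 of 15, exact adjusted p = 0.00394). Animal 5 was the exception on day 14 vs. day 0. The ratio thus passed the threshold from day 3 to day 14 and missed it from day 0 to day 3, and the difference between these changes was not tested. As a share of the FPKM of the 3 gamma genes, PRKAG1 held medians of 63.0%, 63.8% and 73.2% on the 3 days. Leaving out the 4 animals highest in neutrophil markers gave log2 changes of 0.67 (day 14 vs. day 0) and 0.57 (day 14 vs. day 3), each with an adjusted exact p = 0.00703.

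The upstream kinase genes went in opposite directions. STK11, the gene of LKB1, ranged from 16.6 to 40.5 FPKM on day 0 (median 25.2), from 23.3 to 60.4 on day 3 (median 38.6) and from 28.1 to 57.8 on day 14 (median 43.4). It was above its day 0 value in 14 of 15 animals on both later days, the exceptions being animal 4 on day 3 and animal 13 on day 14. STK11 rose by a log2 fold change of 0.67 ± 0.19 (SE) on day 3 (1.59-fold, adjusted p = 0.019) and of 1.12 ± 0.19 on day 14 (2.18-fold, adjusted p = 2.12e-05). Day 14 vs. day 3 gave 0.45 ± 0.19 (adjusted p = 0.104, higher in 11 of 15 animals), which passed the threshold without animal 13 (adjusted p = 0.0497) and was 0.07 without TMM (adjusted p = 0.682). The day 3 call was lost without animal 11 (adjusted p = 0.0591), whose STK11 went from 16.6 to 60.4 FPKM, and among the other 11 animals the change on day 3 was 0.58 (adjusted p = 0.154). On day 14 those 11 animals gave 1.14 (adjusted p = 0.000303), and the deposited values without TMM gave 0.70 (adjusted p = 3.22e-05).

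CAMKK2, the calcium-dependent kinase of AMPK, ranged from 7.93 to 17.7 FPKM on day 0 (median 12.5), from 3.59 to 19.4 on day 3 (median 11.04) and from 3.63 to 10.2 on day 14 (median 6.25). Every animal had less CAMKK2 in FPKM on day 14 than on day 0, and 13 of 15 did after TMM. CAMKK2 fell by 0.60 ± 0.15 (SE) on the log2 scale on day 14 (adjusted p = 0.00172), with −0.27 ± 0.15 on day 3 (adjusted p = 0.258) and −0.33 ± 0.15 from day 3 to day 14 (adjusted p = 0.128). The last of these was −0.71 without TMM (adjusted p = 0.00314). The day 14 call was lost with the animal as a block and RNA integrity number as covariate together (−0.50, adjusted p = 0.0858). On day 0 the 4 highest values, 15.6 to 17.7 FPKM, were those of the 4 animals highest in neutrophil markers, while animal 5, the next in these markers, had the lowest CAMKK2, at 7.93 FPKM. Without the 4 animals the log2 fold change was 0.15 on day 3 (adjusted p = 0.541), −0.26 on day 14 (adjusted p = 0.104) and −0.41 from day 3 to day 14 (adjusted p = 0.0258), and without animal 5 as well it was 0.17, −0.27 and −0.44 (adjusted p = 0.474, 0.0811 and 0.0174). These 4 animals were the highest in CAMKK2 itself on day 0, so leaving them out tends by itself to shrink a fall. The part of neutrophil content in the fall of CAMKK2 was not tested.

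The ratio of STK11 to CAMKK2 rose in all 15 animals by day 14. It ranged from 1.07 to 3.79 on day 0 (median 2.16), from 1.61 to 10.2 on day 3 (median 3.34) and from 2.75 to 13.3 on day 14 (median 6.98). STK11 was above CAMKK2 in every library, but by day 14 the lowest ratio, that of animal 4, exceeded the day 0 median. The within-animal log2 change was 0.94 ± 1.04 (SD, n = 15) on day 3 vs. day 0, higher in 14 of 15 animals (two-sided exact sign-flip test, adjusted p = 0.00061). It reached 1.72 ± 0.98 on day 14 vs. day 0, a 3.29-fold increase with an exact p = 6.1e-05, the smallest that 15 animals allow (adjusted p = 0.000366). From day 3 to day 14 it was 0.78 ± 0.94, higher in 12 of 15 animals (exact adjusted p = 0.00491). Animals differed widely in this: the change by day 14 ran from 0.09 in animal 13 to 3.07 in animal 15. STK11 made up medians of 68.3%, 77.0% and 87.5% of the FPKM of the pair on the 3 days. Without the 4 animals highest in neutrophil markers the change was 0.43 on day 3, against 0.94 in all 15, and 1.39 on day 14 (adjusted exact p = 0.00703 and 0.00586), and without animal 5 as well 0.35 and 1.38.

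**Figure D3:**
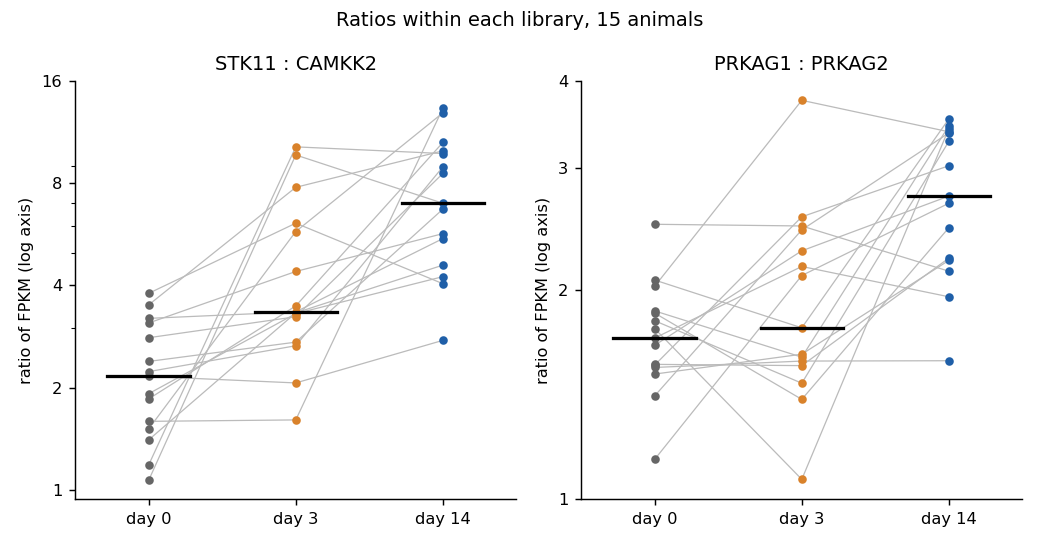
Ratio of FPKM within each library (log axes) for STK11 to CAMKK2 and PRKAG1 to PRKAG2 on days 0, 3 and 14. Points are libraries, grey lines join the samples of an animal and bars are medians (n = 15); the medians went from 2.16 to 6.98 and from 1.71 to 2.73 between day 0 and day 14.

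ACACB, which encodes the mitochondrial acetyl-CoA carboxylase, was the lowest of the 8 genes and rested on 15 to 209 fragments per library. It ranged from 0.0674 to 0.509 FPKM on day 0 (median 0.202), from 0.161 to 0.547 on day 3 (median 0.251) and from 0.127 to 1.12 on day 14 (median 0.267). The log2 fold change on day 14 was 0.64 ± 0.19 (SE, adjusted p = 0.00823), although ACACB was higher in only 9 of 15 animals. The highest value was that of animal 6, whose ACACB went from 0.348 on day 0 to 0.484 on day 3 and 1.12 on day 14. Day 3 vs. day 0 gave 0.23 ± 0.19 (adjusted p = 0.491) and day 14 vs. day 3 gave 0.41 ± 0.19 (adjusted p = 0.141). The day 14 call held without each animal in turn (adjusted p at most 0.0305) and was lost without TMM (0.33, adjusted p = 0.149). The TMM-scaled means were 0.198, 0.253 and 0.423 FPKM on the 3 days, and with 0.1 added to levels this low the log2 value is smaller than that of the scaled FPKM themselves.

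CPT1A, the carnitine palmitoyltransferase of the outer mitochondrial membrane, peaked on day 3 in its median level. It ranged from 2.51 to 30.8 FPKM on day 0 (median 9.79), from 8.04 to 45.7 on day 3 (median 15.7) and from 7.26 to 30.5 on day 14 (median 10.4). In deposited FPKM it had the widest spread among animals on day 0 of the 8 genes, with a coefficient of variation of 64.6%, whereas after TMM that of PRKAB1 was wider (74.5%, against 60.2% for CPT1A). Animal 10 was high at each time point, at 26.4, 33 and 30.5 FPKM, and animal 2 was high on day 3 alone (14.1, 45.7 and 10.4 FPKM). CPT1A was higher on day 3 than on day 0 in 13 of 15 animals, with a log2 fold change of 0.71 ± 0.26 (SE, adjusted p = 0.0604). With the animal as a block in the fit, so that each animal was compared with itself, the same change passed the threshold (adjusted p = 0.0193), and with RNA integrity number added to the block it did not (adjusted p = 0.0782). It also passed without animal 3, 10 or 13 (adjusted p down to 0.0326) and with TMM computed on the FPKM of all genes (0.76, adjusted p = 0.047), and it did not without the 4 animals highest in neutrophil markers (0.55, adjusted p = 0.314). Day 14 gave 0.47 ± 0.26 vs. day 0 (adjusted p = 0.15, and 0.64 with adjusted p = 0.0422 under that TMM on FPKM) and −0.24 ± 0.26 vs. day 3 (adjusted p = 0.559). The median of all tested genes under that TMM on FPKM was 0.05 on day 3 and 0.13 on day 14 vs. day 0. ACACB and CPT1A therefore differed in their profile, the one highest in median on day 14 and the other on day 3, but the difference between them was not tested.

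**Figure D4:**
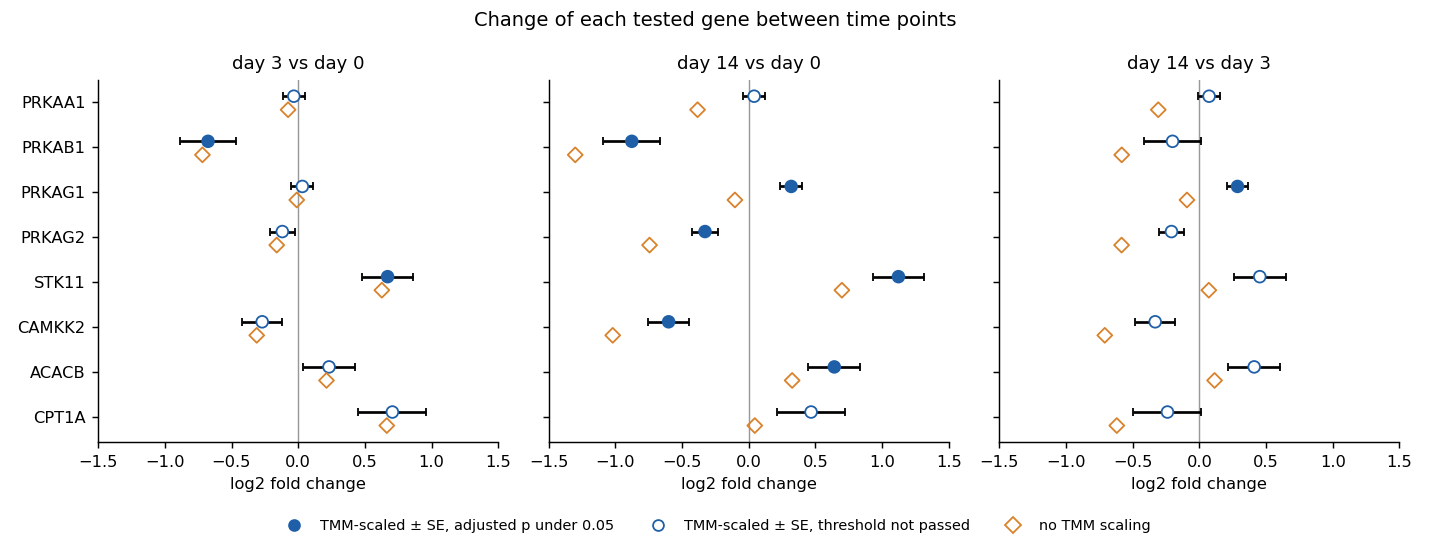
Log2 fold changes of the 8 tested genes in the 3 comparisons. Circles are TMM-scaled values with SE (filled where the adjusted p-value is under 0.05) and diamonds are values without TMM; on day 14 vs. day 0 the filled circles run from −0.88 (PRKAB1) to 1.12 (STK11), and PRKAG1 is at 0.32 with TMM and −0.10 without.

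These changes reordered the genes by level. On day 0 the medians ran from PRKAB1 (37.0 FPKM) through PRKAA1 (32.6), STK11 (25.2), CAMKK2 (12.5), PRKAG1 (10.7), CPT1A (9.79) and PRKAG2 (6.58) to ACACB (0.202). PRKAB1 and PRKAA1 could not be ranked on day 0, since PRKAB1 was the higher in 8 of 15 libraries. PRKAB1 was then above PRKAA1 in 5 libraries on day 3 and in 1 on day 14. STK11 was above PRKAA1 in 4 libraries on day 0 and in 13 on each later day, when it had the highest median. CAMKK2 was above PRKAG1 in 10 libraries on day 0, in 6 on day 3 and in none on day 14. It was above PRKAG2 in all 45. CPT1A exceeded CAMKK2 in 4 libraries on day 0, in 12 on day 3 and in all 15 on day 14. These orders compare levels per gene length within a library and do not depend on TMM.

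Across the 45 libraries the scaled log2 values of the genes were set against each other by Pearson's r, as a description without a test. The values share the library, its depth and its cell composition. PRKAB1 and CAMKK2 were the most alike (r = 0.867), CAMKK2 and PRKAG2 and likewise PRKAG1 and STK11 had r = 0.529, and STK11 and ACACB had r = 0.465. The most opposed were PRKAA1 and PRKAG2 (r = −0.511), while the gamma genes PRKAG1 and PRKAG2 had r = −0.429 and the kinases STK11 and CAMKK2 had r = −0.329. Of the 5 animals highest in neutrophil markers on day 0, 4 were among the 5 highest for PRKAB1, 4 for CAMKK2 and 0 for PRKAG2. Of the 5 highest in erythroid markers, 4 were among the 5 highest for STK11. T cell markers shared 3 of their 5 highest animals with each of PRKAA1, PRKAG1, PRKAG2, ACACB and CPT1A, and monocyte markers shared 3 with CAMKK2. The part of cell composition in the changes of STK11 and CAMKK2 was not tested.

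The genes whose profile over the 45 libraries was most like that of each gene were searched among 10939 genes of at least 5 CPM on average. STK11 was closest to GFOD2 (r = 0.962), AKT2 (0.958) and MAF1 (0.951), and PRKAB1 to TK2 (0.933), RGS19 (0.931) and SLA (0.923). CAMKK2 was closest to DAGLB (0.902), PLCB2 (0.898) and SIPA1 (0.895), and PRKAG1 to DIABLO (0.86), LOC103221256 (0.847) and HSD17B10 (0.83). These 4 genes each had close neighbours, and the r values stayed at 0.756 or higher once the time point means were removed. The others had weaker ones. CPT1A was closest to PDK4 (0.741), which encodes a kinase that inhibits pyruvate dehydrogenase, ACAA2 (0.683), a thiolase of mitochondrial fatty acid oxidation, and SLC25A20 (0.653), the mitochondrial carnitine-acylcarnitine carrier. PRKAG2 was closest to LOC103239448 (0.779), NACC2 (0.764) and LOC103218194 (0.741), ACACB to CDYL (0.691), DHX33 (0.689) and CEP89 (0.685), and PRKAA1 to RNF141 (0.679), KIAA1715 (0.677) and USP33 (0.673).

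Other genes of the pathway were read from a list of 89 symbols, of which 86 were tested, grouped by role. The list was chosen with earlier results of these data known, so its counts stand beside the share of all genes as description only. On day 14 vs. day 0, 43 of the 86 changed (17 up and 26 down), where 36.0% of all tested genes did, and the median of the list was −0.03. Without TMM the split was 10 up and 51 down, where 49.5% of all tested genes were called (7.79% up and 41.8% down). On day 3 vs. day 0, 21 changed (15 up and 6 down, 24.4%, against 12.2% of all tested genes), and on day 14 vs. day 3 also 21 (7 up and 14 down, against 13.3%). Without TMM these splits were 8 up and 7 down on day 3, where 8.51% of all tested genes were called (3.79% up and 4.72% down), and 4 up and 52 down on day 14 vs. day 3, where 38.4% were. The day 3 count rested on few animals, as it was 8 without animal 2, 11 without animal 11 and in limma 0 without all 4 animals highest in neutrophil markers, with 24 at an unadjusted p under 0.05. Over all tested genes the day 3 count also went down, from 2292 to 1358, 1593 and 281 in the same fits. The count of day 14 vs. day 3 went down to 3 without animal 8 and to between 7 and 11 without animal 1, 2, 3, 9, 12 or 14, where the count over all tested genes went from 2498 to 792 and to between 1218 and 1755.

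Of all tested genes, 18.8% rose and 17.3% fell by day 14 (7.79% and 41.8% without TMM). Among 14 partners of LKB1 and other upstream regulators, 3 rose and 4 fell (3 and 9 without TMM). STRADB, which encodes a pseudokinase partner that activates LKB1, went from a mean of 273 ± 187 FPKM (SD, n = 15) on day 0 to 520.4 ± 283 on day 3 and 898 ± 321 on day 14, a log2 fold change of 2.44 on day 14 (adjusted p = 1.21e-05, higher in 14 of 15 animals). ADIPOR1, an adiponectin receptor that signals to AMPK, went from 745 ± 481 to 2421 ± 822 FPKM, a log2 fold change of 2.35 (adjusted p = 7.9e-06, higher in 14 of 15). STK11 itself was at 1.12. Of 11 tested AMPK-related kinases that LKB1 activates, 1 rose and 5 fell (1 and 7 without TMM). MARK3, a kinase of microtubule-associated proteins, rose in all 15 animals, by a log2 fold change of 1.8 (adjusted p = 2.92e-06), and NUAK2 fell by 0.80 (adjusted p = 0.000171, lower in 14 of 15).

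The downstream arms were counted one by one on day 14, and differences between arms were not tested. Of all tested genes 18.8% rose and 17.3% fell then (7.79% and 41.8% without TMM). In the mTORC1 arm, which AMPK inhibits, 6 of 12 genes rose and 1 fell, with a median of 0.22, and without TMM 3 rose and 3 fell, with a median of −0.20. AKT1S1, which encodes an inhibitory subunit of mTORC1, rose by a log2 fold change of 1.07 (adjusted p = 7.4e-05), and RPTOR, the scaffold of the complex and a substrate of AMPK, by 0.998 (adjusted p = 0.000309), each in 14 of 15 animals. In the transcriptional arm 2 of 13 genes rose and 7 fell (2 and 10 without TMM). The 2 that rose were the forkhead factors FOXO3 (2.29, adjusted p = 1.67e-05, higher in 14 of 15 animals) and FOXO4 (2.03, adjusted p = 2.09e-05, higher in 13 of 15). Of 7 phosphatase genes 2 rose and 0 fell, against 1 and 4 without TMM. PPM1A rose by 1.44 in all 15 animals (adjusted p = 0.000126) and PPP2R1B by 0.24 (adjusted p = 0.0138), which turned to −0.18 without TMM (adjusted p = 0.183) and was 0.16 without the 4 animals highest in neutrophil markers (adjusted p = 0.148). The rises of STRADB, ADIPOR1, MARK3, AKT1S1, RPTOR, FOXO3, FOXO4 and PPM1A stayed past the threshold in the other 11 animals (adjusted p at most 0.00153). Erythroid markers rose over the same days, by a median log2 fold change of 2.82 with 13 of 13 called up on day 14, and their part in these rises was not tested.

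The counts of the remaining groups also stand beside 17.3% of all tested genes falling and 18.8% rising (41.8% and 7.79% without TMM). Among the genes of glucose handling, 5 of 10 fell and 1 rose by day 14 (7 and 0 without TMM). PFKFB3, which makes the fructose bisphosphate that stimulates glycolysis, fell from 29.2 ± 19.9 to 7.747 ± 2.172 FPKM, by 1.23 on the log2 scale (adjusted p = 0.000485, lower in 12 of 15 animals), and by 0.68 without the 4 animals highest in neutrophil markers (adjusted p = 0.0336). Its paralog PFKFB2 gave −1.34 (adjusted p = 0.0368), which was lost without animal 2, 7, 10, 11, 13 or 15 (adjusted p at most 0.0988) or with RNA integrity number as covariate (adjusted p = 0.246) and was −0.28 without those 4 animals (adjusted p = 0.631). Of 11 genes of lipid synthesis and fatty acid oxidation 3 fell and 0 rose (7 and 0 without TMM). SREBF1, a transcription factor of lipid synthesis, gave −0.41 (adjusted p = 0.0458), lost without any 1 of animals 1, 2, 4, 7 and 9 to 15 (adjusted p at most 0.109), with RNA integrity number as covariate (adjusted p = 0.387) and without those 4 animals together (−0.39, adjusted p = 0.134). In autophagy initiation 2 of 7 genes rose and 1 fell, whereas without TMM 0 rose and 4 fell. BECN1, a subunit of the lipid kinase that starts autophagosomes, rose by 0.41 (adjusted p = 0.000148, higher in 13 of 15 animals), which was −0.01 without TMM (adjusted p = 0.908). ULK1, the autophagy kinase that AMPK phosphorylates, gave −0.58 (adjusted p = 0.0305), lost without animal 2, 4, 7, 11 or 13 (adjusted p at most 0.0823) and with RNA integrity number as covariate (adjusted p = 0.406), and it was −0.30 without those 4 animals (adjusted p = 0.284).

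**Figure D5:**
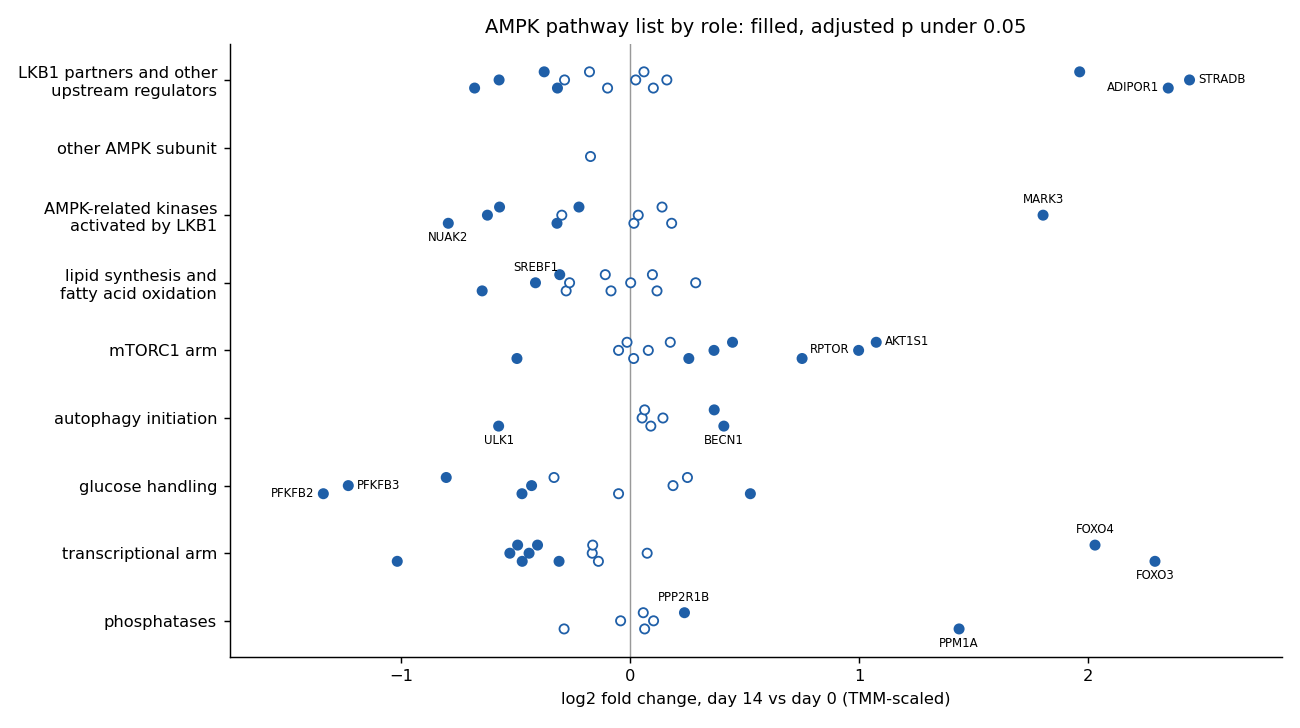
Log2 fold changes on day 14 vs. day 0 (TMM-scaled) of 86 other AMPK pathway genes, in rows by role. Filled points have an adjusted p-value under 0.05 (17 up and 26 down); the named genes run from PFKFB2 (−1.34) to STRADB (2.44), and vertical offsets within a row only separate the points.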

How the data were processed

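Whole-blood RNA from PAXgene tubes was made into stranded libraries after removal of ribosomal and globin RNA. The authors aligned paired-end reads to the Chlorocebus_sabeus 1.1 genome with STAR, counted fragments per gene with HTSeq (the submitters' processing notes also name bcl2fastq) and deposited FPKM for each sample, with no scaling between libraries. The FPKM steps gave back whole fragments for 100.0% of 1011768 values above 0 (tolerance 0.02 fragments). These supplied totals, CPM, TMM and other scaling factors, the fragments given for single genes and the alternative fit with voom.

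Groups and animals came from the sample labels. Genes with more than 0.5 CPM in at least 3 samples were kept (18753). FPKM were divided by TMM factors (computed on fragments of the tested genes with trims of 30% and 5%), 0.1 was added, and log2 values of all 45 libraries were fitted with limma 3.58.1 in R 4.3.3, with 1 mean per time point and no block. The code was tested on simulated data. Same-animal samples were pairs (mean r of deviations 0.328, over 0.1 in 41 of 45 pairs, and −0.0231 between animals), so fits with the animal as a block are given where they change a call. Ratios were tested by two-sided exact sign flips over 15 animals. The 6 tests are fewer than the 12 planned, since PRKAB2 had no row and PRKAA2 too few fragments.

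Named genes were all members, the 2 largest changes per pathway group (day 14, at least 5 CPM) and the 3 most alike profiles per member, and 1 gene of the pathway list that this rule chose is not reported here. The members and lists were chosen with earlier results of these data known. Alternatives were the block, RNA integrity number (from the study's supplement) as covariate, scaling, pseudocount, filter, voom, eBayes with trend and leaving out each animal. After the data were seen, the inputs to TMM were compared by their counts of called genes and the fragments of the tested genes were kept, and fits without the 4 or 5 animals highest in neutrophil markers were added. No sequences were used here.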

Additional observations from a re-analysis of the deposited data

How the results depend on the processing

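Limits: the 15 animals have no unmoved controls, place and sedation go with day 0, and cell content was not measured apart from RNA. ACACB and PRKAA2 are limited by depth. The ratio results kept their direction and side of the threshold under the alternatives run for them (pseudocount, median, permutation without pairing, animals left out), which do not include RNA integrity number. All 6 gene calls on day 14 held without each animal in turn.

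With the animal as replicate block, 3592 genes changed on day 3 and 4455 on day 14 vs. day 3 (2292 and 2498 without it), and of the member calls only that of CPT1A on day 3 changed. The pathway counts were then 29 on day 3 and 27 on day 14 vs. day 3, against 21 for both without the block. With RNA integrity number as covariate, the counts on day 3, day 14 and day 14 vs. day 3 were 1435, 3728 and 1117 for all genes and 9, 25 and 5 for the pathway list, and member counts were 1 on day 3 and 0 on day 14 vs. day 3. With block and covariate together, 2766, 4069 and 1840 genes changed, the pathway counts were 24 on day 14 and 8 on day 14 vs. day 3, and member counts were 1, 3 and 0. PRKAG1 (adjusted p = 0.256), PRKAG2 (0.0804) and CAMKK2 (0.0858) then missed the threshold on day 14. Where limma called 0 members with the covariate, 4 (3 with the block) had an unadjusted p under 0.05. Without TMM, 7206 genes, 3 members and 56 pathway genes changed on day 14 vs. day 3. With no filter on low values, 1638 genes and 9 pathway genes did, and on day 3 it was 1722 genes, 13 pathway genes and 1 member. That fit took all 33635 genes above 0 in at least 1 library. Without the 4 animals highest in neutrophil markers, 281 genes, 0 members and 0 pathway genes changed on day 3 and 2 members on day 14 vs. day 3. Without animal 5 as well these counts were 43, 0, 0 and 3, and 28 pathway genes changed on day 14, where 5027 of all genes did (2286 on day 14 vs. day 3, and 4954 and 2125 without the 4). The cause was not tested.

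Leaving out each animal in turn, the counts on day 3, day 14 and day 14 vs. day 3 ran from 1358 to 2359, 5897 to 6903 and 792 to 3115 for all genes, from 0 to 3, 6 to 6 and 0 to 2 for the members, and from 8 to 20, 39 to 43 and 3 to 26 for the pathway list. The lowest day 3 counts were without animal 2 (genes and pathway list) and animal 11 (members), and the lowest of day 14 vs. day 3 without animal 8. Directions turned for PRKAA1 on day 3 (−0.071 to 0.008 leaving out each animal, 0.003 and 0.019 with TMM on FPKM of tested and all genes), on day 14 (−0.384 without TMM, −0.011 with block and covariate) and on day 14 vs. day 3 (−0.308 without TMM), for PRKAG1 on day 3 (−0.012 to 0.063 leaving out each animal, −0.011 without TMM, −0.025 with the covariate, −0.049 with block and covariate), on day 14 (−0.104 without TMM) and on day 14 vs. day 3 (−0.093), and for CAMKK2 on day 3 (0.15 without the 4 animals, 0.169 without 5). With TMM on FPKM, CPT1A passed the threshold on day 3 (adjusted p = 0.047 over all genes), for a member count of 3, and on day 14 (0.0422).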
